A study of Mus musculus with 10 samples.

Results

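The genes described here are those of 2 families of guidance cues and their receptors, measured in mouse melanoma tumours. The first family holds the Eph receptors and ephrins and the other the netrins with the UNC5 and DCC-type receptors. Members were listed by gene symbol: 9 EphA receptors, 5 EphB receptors, 5 ephrin-A and 3 ephrin-B ligands, 4 netrins, 4 UNC5 receptors, and Dcc with Neo1. Of these 32 genes, 31 have a row among the 52636 genes of the count table, and Ntn3 is not analysed here. Polyadenylated RNA was sequenced from 6 tumours of the genotype BrafCA;Cdkn2af/f; Arf6Q67L, called Arf6Q67L tumours, and 4 tumours of the genotype BrafCA;Cdkn2af/f, called controls. BrafCA is a Cre-activated oncogenic Braf allele, Cdkn2af/f is a floxed tumour suppressor locus, and Arf6Q67L encodes a constitutively active ARF6, a small GTPase. All tumours of both groups thus carry BrafCA and floxed Cdkn2a, while the age and sex of the animals, the Cre driver and the origin of each tumour within an animal were not stated in the labels.

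Eph receptors are receptor tyrosine kinases that are switched on by ephrins on the surface of a neighbouring cell. EphA receptors mostly bind ephrin-A ligands, which are held in the membrane by a lipid anchor, and EphB receptors mostly bind ephrin-B ligands, which span the membrane and can signal back into their own cell. Netrins are secreted, laminin-related cues that bind DCC and neogenin, the product of Neo1, and the UNC5 receptors, which mediate repulsion from netrin in neurons. In vessels ephrin-B2 marks arteries and EphB4 veins, and UNC5B is also made by endothelial cells. EphA2 is often made at a high level by melanoma cells.

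The labels call the tissue melanoma, but most pigment cell markers were at or near 0. Among 9 melanocyte markers 3 passed the low-count filter and 2, Tyr and Dct, had no count in any tumour. Library totals lay between 31372896 and 37918116 counts in Arf6Q67L tumours and between 28635414 and 40869091 in controls. No count in a library allows up to 3 counts, between 0.0734 and 0.105 CPM (counts scaled to library size), and such floors cover counting error only. Arf6 itself was at 104 ± 21.3 CPM in the 6 Arf6Q67L tumours and 93.0 ± 17.4 CPM in the 4 controls (mean ± SD, as in all such pairs here), so its level does not check the labels. Control 4 was the highest tumour for 18.8% and the lowest for 16.7% of all genes tested, the largest of these shares among the 10 tumours.

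A low-count filter (a minimum count of 10) kept 24 of the 31 genes and 17286 genes of the whole table. In edgeR's quasi-likelihood test, adjusted over all genes tested, 0 of the 24 members passed the threshold of 0.05, as did 0% of all genes. DESeq2 also called 0 of the 24, against 2.02% of the genes it tested, and limma-voom called 0. At an unadjusted p under 0.05, 3 members (12.5%) were counted, all lower in Arf6Q67L tumours. Among all genes 11.7% were counted in either direction and 7.05% as lower, so the members' share was near the background in either direction. These were the receptors Ephb1 and Ephb2 and the ligand Efnb2. For 0 members did the groups fail to overlap, against 2.44% of all genes. The median log2 fold change of the 24 members, Arf6Q67L over control, was -0.15, with 9 positive and 15 negative, and that of all genes was -0.002. The count at an unadjusted p under 0.05 fell to 1 without control 1, to 1 without control 2 and to 0 without control 3. Labels do not say whether tumours came from separate animals, so p-values measure only the spread between these tumours. In bulk tissue fewer cells of a type and less RNA per cell cannot be told apart.

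**Figure D1:**
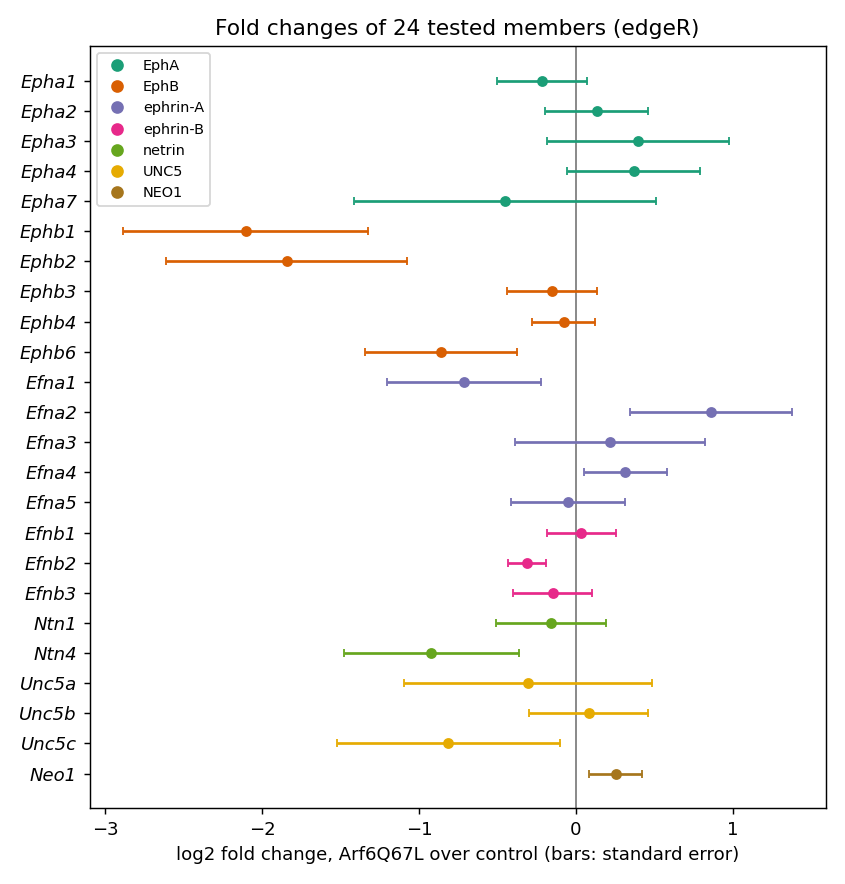
Each point is the edgeR log2 fold change of a tested member, Arf6Q67L over control, on the horizontal axis, with its standard error as a bar and colours for the classes. All 5 EphB receptors lie left of 0, with Ephb1 at -2.10 and Ephb2 at -1.84, though Ephb3 and Ephb4 changed sign under other settings, and 0 of the 24 passed the threshold.

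Upstream sequences are shown for Ephb1 and Efnb2, which with Ephb2 had the lowest p-values, so that a receptor and a ligand of the EphB side can be set side by side. Each holds the 250 bases before the RefSeq start of the gene (build GRCm38.p6, minus strand, 5′ to 3′ along the gene), at chr9:102354694-102354943 for Ephb1 and chr8:8661243-8661492 for Efnb2. The same window of Ephb2 lies inside a longer annotated transcript and is not shown. Capitals mark matches, on either strand, to a GC box (GGGCGG) or a TATA box (TATAAA).
Ephb1: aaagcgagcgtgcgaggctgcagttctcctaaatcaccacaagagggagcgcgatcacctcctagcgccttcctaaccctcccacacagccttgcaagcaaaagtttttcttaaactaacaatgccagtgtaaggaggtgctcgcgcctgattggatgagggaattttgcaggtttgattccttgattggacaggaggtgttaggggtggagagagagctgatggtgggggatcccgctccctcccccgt
Efnb2: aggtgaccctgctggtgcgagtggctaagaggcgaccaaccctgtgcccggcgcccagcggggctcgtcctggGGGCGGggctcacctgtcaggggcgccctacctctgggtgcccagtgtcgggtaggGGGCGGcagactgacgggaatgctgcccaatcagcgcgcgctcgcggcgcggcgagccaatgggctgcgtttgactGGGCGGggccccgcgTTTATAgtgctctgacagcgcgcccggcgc
The Efnb2 window was 72% G and C with 27 CpG pairs, and that of Ephb1 54% with 10, against a median of 52.4% G and C over 32851 RefSeq windows of this length. Efnb2 held 3 GC boxes and 1 TATA box and Ephb1 held neither, while 32.7% of all windows held a GC box and 12.4% a TATA box. No match to an E-box (CACGTG), an AP-1 site (TGANTCA) or an RBPJ site (TGGGAA) was in either window. The E-box is in 6.02% of all windows, the AP-1 site in 6.75% and the RBPJ site in 21.6%.

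The EphB receptors were the class with the most negative values. Negative log2 fold changes were found for 5 of 5, the median being -0.86, and 0 passed the threshold; Ephb4 was positive without Arf6Q67L tumour 2 or control 1, and Ephb3 with sex as a term. Ephb2, a receptor of ephrin-B ligands that acts in axon guidance and gut crypt sorting (chromosome 4, 136647539 to 136835988, GRCm38), was at 2.46, 1.02, 9.03, 19.8, 2.32 and 4.46 CPM in Arf6Q67L tumours 1 to 6. In controls 1 to 4 it was at 19.5, 31.9, 35.5 and 6.68 CPM. So 4 of 6 Arf6Q67L tumours were below every control, while tumours 3 and 4 were above control 4 and tumour 4 lay at the level of control 1. The log2 fold change of Ephb2 was -1.84 (SE 0.77, edgeR adjusted p = 0.401). It was -2.60 without Arf6Q67L tumour 4, -2.61 with sex as a term, -2.50 in limma-voom and -1.57 without control 3. Ephb1, a related receptor (chromosome 9, 101922128 to 102354693), was at 0.244, 0.276, 0.383, 0.219, 0 and 0.343 CPM in Arf6Q67L tumours, where the value of 0 stands for tumour 5. In controls it was at 1.597, 0.755, 1.76 and 0.101 CPM. Thus 3 of the controls were above every Arf6Q67L tumour and control 4 below all but tumour 5. Control 4 is placed by few counts: Ephb1 had 3 there, 0 in tumour 5 and 7 to 12 in the other Arf6Q67L tumours. The log2 fold change of Ephb1 was -2.10 (SE 0.78, edgeR adjusted p = 0.364), and it rests on 190 counts in all 10 libraries together. An annotated lincRNA on the other strand shares 152 bases of exon with Ephb1, and whether strand was used in the counting is not known from the sources used here.

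For Ephb1 and Ephb2 alike, controls 1 to 3 were the higher controls and control 4 the lowest. The summed level of endothelial markers, given with Efnb2, also had control 4 as its lowest control. That sum was 438 CPM in Arf6Q67L tumour 1 and 436.2 CPM in control 2, while Ephb2 was at 2.46 and 31.9 CPM in them. Much of the sum in tumour 1 was Cdh5 (184.0 CPM) and Esam (133.9 CPM), at 33.7 and 31.9 CPM in control 2. The part of endothelial cells in the levels of Ephb1 and Ephb2 was not tested. Both were also among the more variable genes: the biological coefficient of variation (BCV, the spread between tumours of a group beyond counting error) was 0.811 for Ephb1 and 0.804 for Ephb2. Those values lie at the 93.7 and 93.5 percentiles of all genes tested. In DESeq2 the adjusted p was 0.163 for Ephb1 and 0.199 for Ephb2.

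Ephb4, the receptor of ephrin-B2 in veins, was the most abundant EphB receptor per length. It stood at 12.8 ± 2.67 RPKM, which are CPM per kilobase of exon, in Arf6Q67L tumours and 13.5 ± 2.96 RPKM in controls. It was at 68.6, 35.2, 61.55, 59.7, 64.3 and 67.35 CPM in Arf6Q67L tumours, against 74.9, 60.3, 71.5 and 44.4 CPM in controls. The groups overlapped over most of their range (log2 fold change -0.08, SE 0.20, edgeR adjusted p = 0.912). Ephb3, another ephrin-B receptor, showed a log2 fold change of -0.15 (SE 0.29), at 12.7 ± 4.72 CPM over the 6 Arf6Q67L tumours and 14.1 ± 4.33 CPM over the 4 controls.

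Ephb6, a receptor without kinase activity that is known from T cells, was at 9.37, 6.89, 1.95, 10.3, 7.86 and 10.2 CPM in Arf6Q67L tumours. In controls 1 to 4 it was at 4.23, 15.7, 14.7 and 21.7 CPM. Controls 2 to 4 were above every Arf6Q67L tumour and control 1 was below all but tumour 3, which gave a log2 fold change of -0.86 (SE 0.48, edgeR adjusted p = 0.530). The summed CPM of 8 T cell markers, all of which passed the filter, was 38.1, 46.3, 28.3, 119, 100.5 and 76.25 in Arf6Q67L tumours. It was 59.3, 299.8, 75.0 and 398 in controls, so control 4 was highest and tumour 3 lowest in both measures. Control 3, however, had a lower sum than Arf6Q67L tumours 4 to 6 and a higher Ephb6 level. The part of T cells in the Ephb6 level was not tested.

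The ephrin-B ligands are the main partners of these receptors. Efnb2 (chromosome 8, 8617434 to 8661242) was at 72.0, 66.9, 61.8, 57.7, 73.7 and 66.5 CPM in Arf6Q67L tumours. In controls it was at 94.4, 81.8, 90.3 and 62.9 CPM. All 6 Arf6Q67L tumours were below controls 1 to 3, and 4 of them lay above control 4. The log2 fold change was -0.31 (SE 0.12, edgeR adjusted p = 0.377), and its BCV of 0.172 was the smallest among the members. Summed CPM of 12 endothelial markers, all past the filter, was 438, 383.2, 197.0, 395.5, 199.9 and 188.8 in Arf6Q67L tumours. In controls it was 585.5, 436.2, 507.1 and 232.9. Of these markers 10 had a negative log2 fold change and 6 of them an unadjusted p under 0.05. Among all genes 7.05% were counted as lower at that level. In edgeR 0 of the 12 passed the threshold, and in DESeq2 2 did. Esam (log2 fold change 0.53) and Tek (0.01) were positive. Much of the sum in Arf6Q67L tumour 1 was Cdh5 (184.0 CPM) and Esam (133.9 CPM). For Efnb2 and for the endothelial sum alike controls 1 to 3 were the higher controls and control 4 the lowest. Among Arf6Q67L tumours the order differed. Tumour 5, highest of the group in Efnb2, had an endothelial sum of 199.9, below that of control 4. Tumour 4, lowest of the group in Efnb2, had a sum of 395.5. Single markers weigh on these sums: Esam was at 120.1 CPM in tumour 4 and 29.9 CPM in tumour 5. Cldn5 was at 168.4 CPM in control 2. The part of endothelial cells in the Efnb2 level was not tested. For 8 arterial and tip cell markers, all past the filter, the sum ran from 49.2 over a median of 81.6 to 103.1 CPM in Arf6Q67L tumours, against 123.4, 63.4, 121.3 and 52.2 CPM in controls. Much of that sum was Cxcr4, which immune cells also make, at 31.4 to 69.6 CPM in Arf6Q67L tumours and 26.3 to 53.1 CPM in controls. Cxcr4 had the only positive log2 fold change of the list (0.44, SE 0.30), and the other 7 were negative. Esm1, a tip cell gene, had the lowest p of the list. It was also the only gene of the list whose groups did not overlap, against 2.44% of all genes tested. Esm1 was below every control in 6 of 6 Arf6Q67L tumours (log2 fold change -2.42, SE 0.56, edgeR adjusted p = 0.233, DESeq2 adjusted p = 0.00358).

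Efnb1, an X-linked ephrin-B ligand, was at 33.9 ± 8.24 CPM over the 6 Arf6Q67L tumours and 33.0 ± 8.27 CPM over the 4 controls, with a log2 fold change of 0.04 (SE 0.22, edgeR adjusted p = 0.967). The sign was negative without Arf6Q67L tumour 3, without control 4, with sex as a term and in limma-voom. Efnb3, best known from the nervous system, was low at 0.909 ± 0.189 CPM over the 6 Arf6Q67L tumours and 1.01 ± 0.265 CPM over the 4 controls. Efnb1 and Efnb2 together made up at least 97.4% of the summed ephrin-B RPKM in every tumour.

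**Figure D2:**
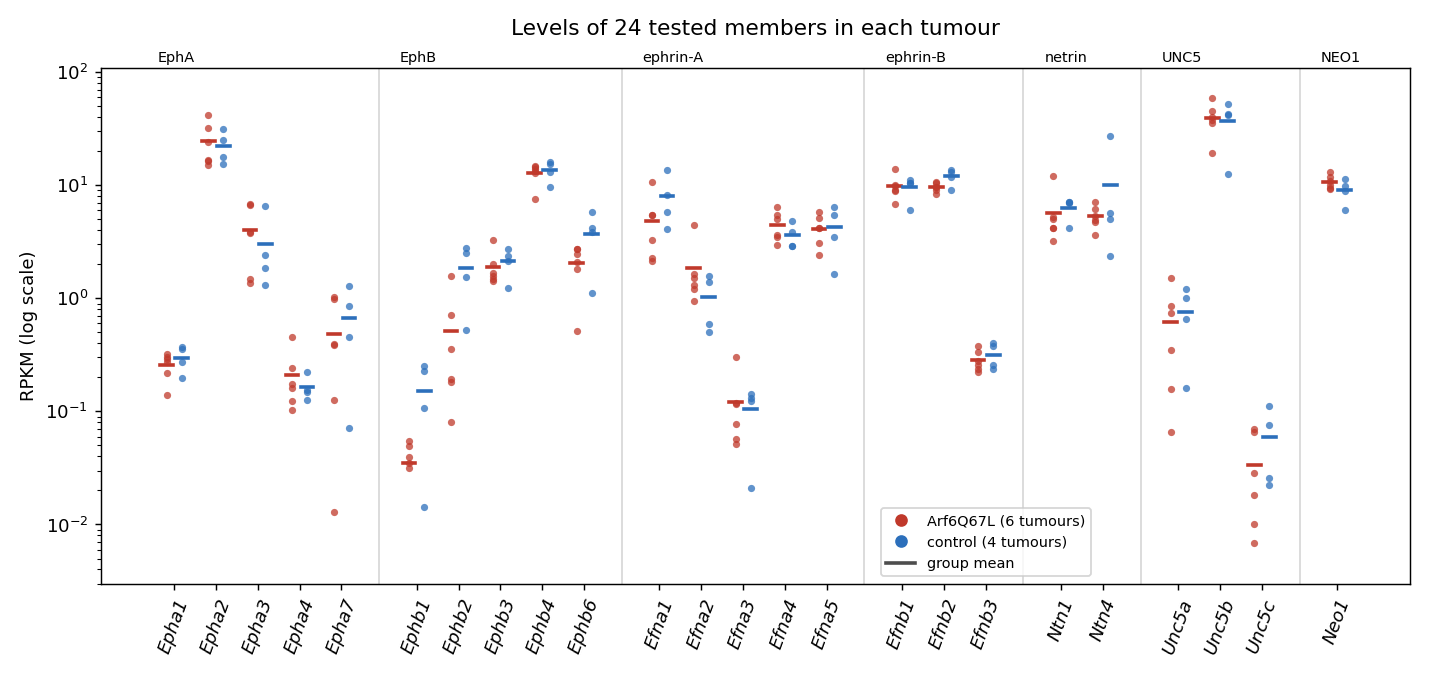
Every dot is the RPKM of a tested member in a tumour on a log axis, with Arf6Q67L tumours in red to the left of controls in blue and a line at each group mean; the value of 0 for Ephb1 in Arf6Q67L tumour 5 cannot be drawn. Unc5b and Epha2 stand highest, and the groups overlap for every member.

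Among the EphA receptors Epha2, the main receptor of ephrin-A1, held most of the class. Its level (chromosome 4, 141301240 to 141329384) was 196.6, 151.4, 70.6, 112.7, 77.1 and 78.5 CPM in Arf6Q67L tumours. In controls it was 117.9, 71.5, 82.5 and 145.8 CPM. Arf6Q67L tumours thus held both the highest and the lowest value (log2 fold change 0.13, SE 0.33, edgeR adjusted p = 0.910), and the sign was negative without Arf6Q67L tumour 1 or control 2. Epha2 made up 67.6% to 94.3% of the summed EphA RPKM in Arf6Q67L tumours, against 77.8% to 93.2% in controls.

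Epha3, an ephrin-A receptor also found in some melanomas, followed at 4.02 ± 2.39 RPKM over the 6 Arf6Q67L tumours and 3.05 ± 2.42 RPKM over the 4 controls. It was at 33.2, 12.9, 57.8, 59.9, 33.9 and 11.9 CPM in Arf6Q67L tumours, against 57.5, 16.1, 21.1 and 11.3 CPM in controls. High and low tumours occurred in both groups, and the log2 fold change of 0.40 (SE 0.58, edgeR adjusted p = 0.828) was 1.11 without control 1 and 0.15 without control 4. Epha7, a receptor known from brain patterning, was more variable than any other tested member, with a BCV of 0.993 (percentile 96.8 of all genes). It ran over 99.5-fold from 0.128 to 12.7 CPM.

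For Epha7 the Arf6Q67L tumours had 3.87, 1.24, 0.128, 9.75, 10.1 and 3.86 CPM and the controls 0.71, 12.7, 8.49 and 4.53 CPM. Low and high values were found in both groups (log2 fold change -0.45, SE 0.96, edgeR adjusted p = 0.886), and the value was positive without control 2 and with sex as a term. The summed CPM of 9 Schwann cell markers, 7 of them past the filter, was 77.3, 52.3, 43.7, 83.9, 110.3 and 106.9 in Arf6Q67L tumours, and 46.6, 116.9, 108.5 and 63.7 in controls. Arf6Q67L tumour 3 and control 1 had the lowest values of both measures in their groups, and control 2 the highest of both over all 10 tumours. Most of that sum was Ncam1, which other cells also make, and its part in the Epha7 level was not tested.

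Epha4, which binds ligands of both ephrin types, was at 1.69 ± 1.05 CPM over the 6 Arf6Q67L tumours and 1.31 ± 0.338 CPM over the 4 controls. Epha1, an epithelial receptor, was at 1.01 ± 0.270 CPM over the 6 Arf6Q67L tumours and 1.175 ± 0.316 CPM over the 4 controls. Exons of Epha1 share 236 bases with Zyx on the other strand, so reads of the 2 genes may not be told apart. Epha5, Epha6, Epha8 and Epha10 were under the filter, with totals of 8, 0, 5 and 2 counts over all 10 libraries.

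The ephrin-A ligands, which bind EphA receptors, showed values of both signs, 3 positive and 2 negative, the median log2 fold change being 0.22, and Efna3 and Efna5 changed sign when single tumours were left out. Efna1, an EphA2 ligand that inflammatory cytokines can induce, was the most abundant per length, at 4.87 ± 3.21 RPKM over the 6 Arf6Q67L tumours and 7.97 ± 4.22 RPKM over the 4 controls. It was at 5.96, 9.93, 19.6, 9.93, 3.88 and 4.18 CPM in Arf6Q67L tumours, against 14.9, 10.7, 25.2 and 7.48 CPM in controls. Of the 6 Arf6Q67L tumours 3 were below every control, and tumour 3 exceeded all controls but control 3 (log2 fold change -0.71, SE 0.49, edgeR adjusted p = 0.610). Efna2 had the highest positive fold change among the members, 0.86 (SE 0.52, edgeR adjusted p = 0.554), and it was 0.39 without Arf6Q67L tumour 3. That tumour had 9.58 CPM, against at most 3.53 CPM in the others of its group and at most 3.35 CPM in controls.

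Efna5, a ligand known from topographic mapping in the brain, was at 16.7 ± 5.08 CPM over the 6 Arf6Q67L tumours and 17.3 ± 8.62 CPM over the 4 controls, with a log2 fold change of -0.05 (SE 0.36). Efna4 differed by a log2 fold change of 0.31 (SE 0.26); 3 of 6 Arf6Q67L tumours were above every control. Efna3 was low, with 23 counts (0.734 CPM) in Arf6Q67L tumour 3, 4 to 11 counts in the other Arf6Q67L tumours and 2 to 11 in controls. Annotated antisense genes on the other strand share 344 bases of exon with Efna3, 168 with Efna4 and 118 with Unc5c. The ratio of the summed EphA to the summed ephrin-A RPKM lay between 0.870 and 4.85 in Arf6Q67L tumours, against 0.803 to 3.57 in controls. It was lowest in Arf6Q67L tumour 3 and in control 3, the tumours with most Efna1 in their groups.

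Netrin ligands were represented by Ntn1 and Ntn4. Ntn1, the classical secreted netrin that binds DCC, neogenin and UNC5 receptors, was at 26.1, 20.4, 76.3, 31.5, 33.0 and 26.2 CPM in Arf6Q67L tumours. In controls it was at 26.3, 43.5, 44.9 and 44.4 CPM. Apart from tumour 3 the Arf6Q67L tumours lay below controls 2 to 4 (log2 fold change -0.16, SE 0.35, edgeR adjusted p = 0.890), and without tumour 3 the value was -0.52. Ntn4, a basement membrane netrin that vessels make, was at 20.03, 17.7, 18.5, 23.2, 13.5 and 26.5 CPM in Arf6Q67L tumours, against 101.4, 18.9, 21.4 and 8.89 CPM in controls. Control 1 alone set the sign: the log2 fold change of -0.92 (SE 0.56, edgeR adjusted p = 0.560) was 0.28 without it. Ntn5 was under the filter with 52 counts in all libraries, and its exons share 519 bases with Sec1 on the other strand.

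Of the receptors, Unc5b, which encodes a netrin receptor of endothelial and tumour cells with a death domain (chromosome 10, 60762593 to 60831581), had the highest level per length of all members. It stood at 39.6 ± 13.02 RPKM over the 6 Arf6Q67L tumours and 37.5 ± 17.2 RPKM over the 4 controls. Its CPM were 369.0, 236.2, 120.1, 252.4, 223.7 and 285.6 in Arf6Q67L tumours and 328.6, 263.3, 266.4 and 79.0 in controls. Arf6Q67L tumour 3 and control 4 were the low tumours of their groups (log2 fold change 0.08, SE 0.38, edgeR adjusted p = 0.956), and the sign was negative without Arf6Q67L tumour 1 or control 4. Unc5b made up at least 92.0% of the summed UNC5 RPKM in every tumour and from 12.03% to 33.7% of the RPKM of all members.

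Unc5a and Unc5c, which act in neuronal guidance, were low. Unc5a was at 1.46, 0.276, 6.26, 3.604, 3.07 and 0.658 CPM in Arf6Q67L tumours and at 4.21, 2.74, 5.004 and 0.671 CPM in controls, with a BCV of 0.83. Unc5c lay between 0.130 and 1.35 CPM in Arf6Q67L tumours and between 0.431 and 2.14 CPM in controls (log2 fold change -0.81, SE 0.71, edgeR adjusted p = 0.701). Neo1, which encodes the DCC-like receptor neogenin, was at 114.8, 82.7, 103.1, 96.0, 81.4 and 87.2 CPM in Arf6Q67L tumours, against 85.8, 99.1, 77.9 and 52.9 CPM in controls. Of the Arf6Q67L tumours 2 were above every control, and the log2 fold change was 0.26 (SE 0.17, edgeR adjusted p = 0.594). Dcc and Unc5d were under the filter with 8 and 60 counts in all libraries. Of the DCC-type receptors only Neo1 was therefore tested.

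**Figure D3:**
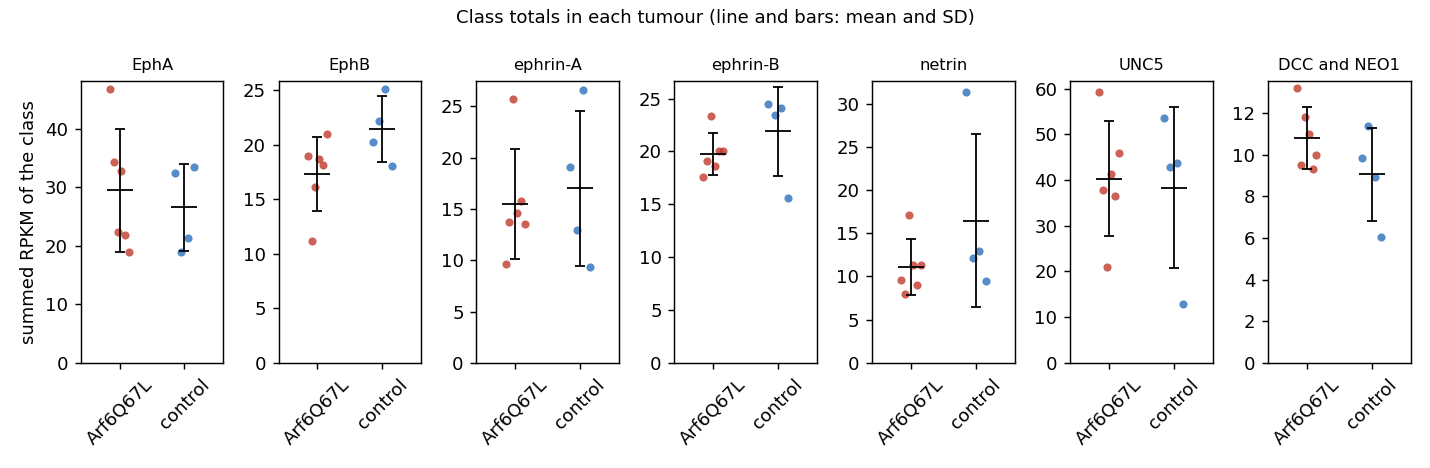
For each class the summed RPKM of its members is plotted per tumour, Arf6Q67L in red to the left of controls in blue, with the mean and SD as a line and bars. The groups overlap in all 7 classes, and control 4 is the lowest control in every class but EphA, where it is the highest at 33.5 RPKM.

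By class the summed level of EphB receptors was 17.3 ± 3.38 RPKM over the 6 Arf6Q67L tumours and 21.4 ± 3.02 RPKM over the 4 controls. Ephrin-B ligands came to 19.8 ± 1.99 RPKM over the 6 Arf6Q67L tumours and 21.9 ± 4.23 RPKM over the 4 controls. EphA receptors came to 29.5 ± 10.5 RPKM over the 6 Arf6Q67L tumours and 26.5 ± 7.49 RPKM over the 4 controls, and ephrin-A ligands to 15.5 ± 5.40 RPKM over the 6 Arf6Q67L tumours and 17.0 ± 7.56 RPKM over the 4 controls. In each of these 4 classes the groups overlapped. Netrins came to 11.1 ± 3.24 RPKM over the 6 Arf6Q67L tumours and 16.5 ± 10.1 RPKM over the 4 controls, where control 1 had 31.4 RPKM and no other control more than 12.9 RPKM. UNC5 receptors came to 40.3 ± 12.6 RPKM over the 6 Arf6Q67L tumours and 38.3 ± 17.6 RPKM over the 4 controls, and DCC-type receptors to 10.8 ± 1.502 RPKM over the 6 Arf6Q67L tumours and 9.06 ± 2.23 RPKM over the 4 controls. Per length the UNC5 sum exceeded the netrin sum in every tumour, by 1.22 to 6.16 times in Arf6Q67L tumours and by 1.36 to 3.55 times in controls. No test was made on these sums.

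Members also varied between tumours of the same genotype. The BCV of the 24 tested members had a median of 0.444, against 0.284 over all genes tested, and it depends on the level of a gene as well. Arf6Q67L tumour 3 was the highest of the 10 tumours for Efna2, Efna3, Efnb1, Ntn1 and Unc5a and the lowest for Epha2, Epha7 and Ephb6. It was the highest tumour for 14.9% of all genes tested and the lowest for 14.3%. Control 4 was the lowest tumour for 6 members, Epha3, Efna5, Efnb1, Ntn4, Unc5b and Neo1, and the highest for Ephb6 and Efnb3. Over all genes tested control 4 was the lowest for 16.7% and the highest for 18.8%. The summed CPM of 8 skeletal muscle markers, all past the filter, ran from 14.6 over a median of 388.6 to 745.4 in Arf6Q67L tumours, against 33.8, 5.66, 3.63 and 1130 in controls. Its part in these values was not tested.

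**Figure D4:**
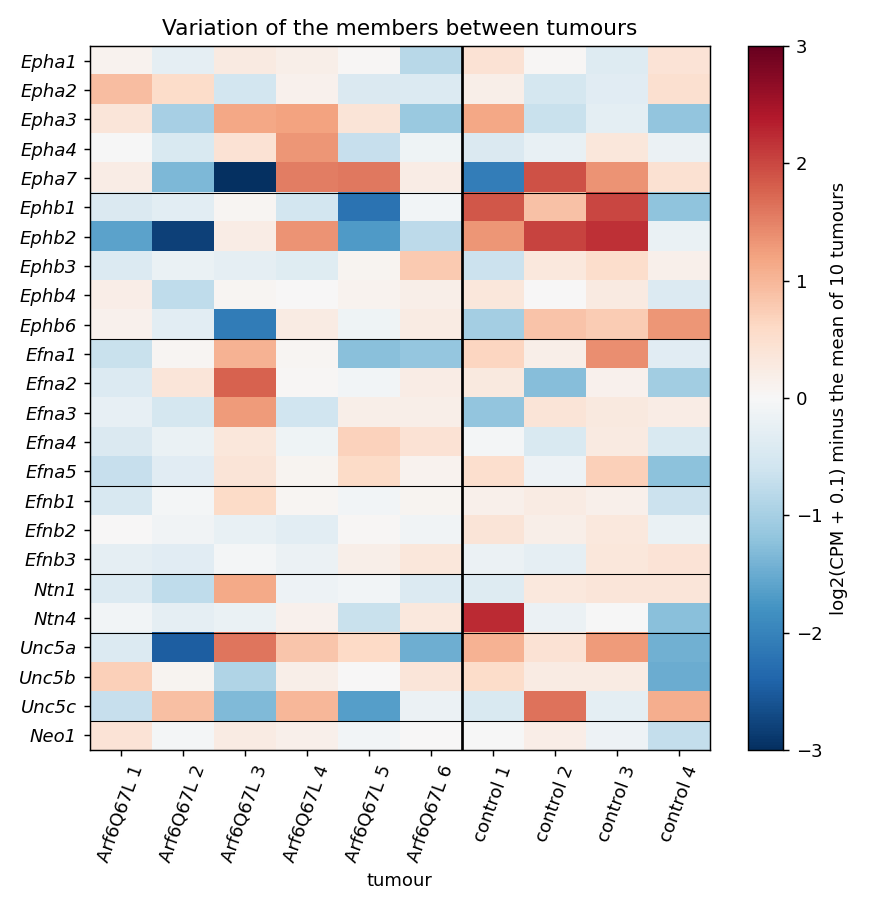
Colours give log2(CPM + 0.1) of each tested member minus its mean over the 10 tumours, with the 6 Arf6Q67L tumours left of the 4 controls; colours end at 3 and -3. Ephb1 and Ephb2 are raised in controls 1 to 3, and Ephb2 also in Arf6Q67L tumour 4. Ntn4 is raised in control 1, and several ligands in Arf6Q67L tumour 3.

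Genes that act with these receptors were read from the same fit. Of 32 genes of Eph and ephrin signalling 31 were tested and 0 passed in edgeR or DESeq2, 18 values being positive and 13 negative (median log2 fold change 0.05). Arhgef15, an exchange factor of the ephexin family, which acts downstream of Eph receptors, was lowest in p. It was at 5.66, 6.95, 6.86, 8.27, 5.28 and 5.86 CPM in Arf6Q67L tumours and at 11.6, 10.03, 11.6 and 7.04 CPM in controls. As for Efnb2, all 6 Arf6Q67L tumours were below controls 1 to 3 (log2 fold change -0.64, SE 0.19, edgeR adjusted p = 0.289), and Arhgef15 is also made by endothelial cells. The part of endothelial cells in the Arhgef15 level was not tested. Crk, an adaptor of phosphotyrosine signalling, was at 273.9, 273.9, 289.0, 243.5, 225.1 and 224.9 CPM in Arf6Q67L tumours, against 241.1, 193.9, 177.0 and 186.2 CPM in controls. Of the 6 Arf6Q67L tumours 4 were above every control (log2 fold change 0.35, SE 0.12, edgeR adjusted p = 0.335).

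Of 24 genes of netrin, DCC and UNC5 signalling 22 were tested and 0 passed in edgeR or DESeq2, with 17 positive and 5 negative values and a median of 0.18. Flrt3, a membrane protein that binds UNC5 receptors, was at 33.1, 48.1, 23.3, 28.1, 25.9 and 33.4 CPM in Arf6Q67L tumours. In controls it was at 31.95, 15.5, 21.4 and 14.9 CPM. All 6 Arf6Q67L tumours were above controls 2 to 4 (log2 fold change 0.61, SE 0.26, edgeR adjusted p = 0.414). Rgmb, a membrane-bound ligand of neogenin, was chosen after its values were seen: it reached 255.7 CPM in Arf6Q67L tumour 3, the tumour highest in Ntn1, and at most 93.5 CPM in the others of that group and 92.2 CPM in controls. At an unadjusted p under 0.05, 3 of the 53 genes of both signalling lists were counted, a share of 5.66%, against 11.7% of all genes.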

How the data were processed

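Polyadenylated RNA of 10 tumours was sequenced after TruSeq Stranded mRNA library preparation, per the labels' protocols. The authors deposited raw counts per mouse Ensembl gene, 1 column per library. The submitters' processing notes list STAR 2.5.2b, featureCounts 1.5.1, DESeq2 1.18.0 and GRCm38, with no role or order. Whether strand or multimapping reads were used in counting is not stated in these sources. Symbols and coordinates came from GENCODE M21 (GRCm38), which named 99.7% of identifiers.

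Counts were fitted with edgeR 4.0.16 (R 4.3.3): filterByExpr (minimum count 10), TMM, estimateDisp, robust glmQLFit and glmQLFTest with genotype as the term, and Benjamini-Hochberg adjustment over 17286 genes. The SE was taken as the size of the log2 fold change divided by the square root of F. CPM use TMM factors, and RPKM divide them by the union of exons. The alternatives used DESeq2 1.42.0 and limma 3.58.1 among others. The fit was tested on simulated data. Library order followed genotype, and their effects cannot be told apart. Tumours are numbered in accession order, which pairs none.

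Members and lists were chosen with earlier results of these data known. Values in every tumour were given for members past the threshold in edgeR or DESeq2 or with separate groups (0 each), members with an unadjusted p under 0.05, the member with the highest RPKM of each class and their binding partners, and of the signalling lists for genes with an unadjusted p under 0.05. Which binding partners to give in every tumour was settled after values were seen, as was the naming of Rgmb and Rgma. Promoter sequences were taken from RefSeq (GRCm38.p6), which held 28 of the 32 genes.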

Additional observations from a re-analysis of the deposited data

Results flagged for a closer look

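For each tested member the highest and lowest tumour of a group were compared with the nearest other tumour, as the gap over the whole range of the group. The gap was large (past Dixon's 95% critical value) in 9 of 48 groups (18.8%), against 8.61% of the groups of all genes tested, and chance flags about 1 in 20 groups. The 48 groups share the same 10 tumours, so their count is given as a description. In Arf6Q67L tumour 3 the high values were those of Ntn1 (76.3 CPM, next 33.0), Efna2 (9.58 CPM, next 3.53) and Efna3 (0.734 CPM, next 0.286). In Arf6Q67L tumour 6 Ephb3 was high at 21.9 CPM (next 13.4), and in Arf6Q67L tumour 2 Ephb4 was low at 35.2 CPM (next 59.7).

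In control 1 Ntn4 was high at 101.4 CPM (next 21.4), while Ntn1 was low at 26.3 CPM (next 43.5) and Efna3 at 0.0507 CPM (next 0.302). In control 4 Efnb1 was low at 20.8 CPM (next 36.1).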

How the results depend on the processing

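Members past the threshold numbered 0 under all 16 alternatives, of those each tested, with a lowest adjusted p of 0.163 (Ephb1 in DESeq2). Over all genes DESeq2 called 153 higher and 249 lower and limma-voom 1 higher and 1 lower. Leaving out each tumour in turn gave 0 to 1 genes higher, and 0 to 4 members at an unadjusted p under 0.05. Signs held for 13 of 24 members in the alternatives that tested them, for 9 in all 16 (Ephb2 and Efnb2 among them) and for 4 (Ephb1, Epha1, Efnb3 and Unc5c) in all but the minimum count of 50, whose filter removed them along with Epha4 and Efna3. Efna3 was also removed without Arf6Q67L tumour 3 or 6. By Xist and Y-linked counts Arf6Q67L tumours 1, 3 and 4 and control 1 read as female and the other tumours as male. Control 1 is thus the only female control. With sex as a term the log2 fold change was 0.021 for Epha7, 0.052 for Ephb3 and -0.002 for Efnb1, and in limma-voom it was -0.18 for Efna3 and -0.11 for Efnb1. Over the tumours left out it ran from -0.09 to 0.34 for Epha2, -0.021 to 0.56 for Epha4, -0.83 to 0.075 for Epha7, -0.20 to 0.043 for Ephb4, -0.14 to 0.42 for Efna3, -0.31 to 0.22 for Efna5, -0.12 to 0.12 for Efnb1, -1.24 to 0.28 for Ntn4, -0.79 to 0.004 for Unc5a and -0.20 to 0.29 for Unc5b. With the longest transcript as length the ephrin-B sum was 24.5 RPKM in Arf6Q67L tumours and 27.6 RPKM in controls, and the sum of DCC-type receptors 12.8 RPKM in Arf6Q67L tumours, since no transcript is longer than the union of exons. Other causes were not tested. No paired analysis was possible because the labels give the groups no shared replicate numbers. Ephb1, Efna3 and Unc5c rest on few counts, which limits what can be seen of them at this depth.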

Other observations

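Among the members under the low-count filter, some had most of their counts in 1 tumour. Unc5d, which encodes an UNC5 receptor of the developing brain, had 44 counts in Arf6Q67L tumour 3 and 13 in Arf6Q67L tumour 6, and at most 1 in every other library. Epha5, an EphA receptor of neurons, had 7 counts in Arf6Q67L tumour 1 and 1 in tumour 3, and Dcc had 6 in Arf6Q67L tumour 1 and 2 in tumour 6. Controls had 0 counts of Epha5 and Dcc, which allows up to 3 counts per library. Epha6 had 0 counts in all 10 libraries. Ntn5, a netrin, had 2 to 9 counts per library in Arf6Q67L tumours and 2 to 7 in controls.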
